A study of Mus musculus with 12 samples.

Results

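Ucp2, the vitamin C transporter gene Slc23a2 and 8 genes of antioxidant defense (Sod1, Sod2, Cat, Gpx1, Gpx4, Prdx3, Prdx5 and Txn2) were examined in the arcuate nucleus (ARC) of R299Q γ2 AMPK mice. These 10 genes, of the 38283 genes in the deposited table, were chosen by name for their part in uncoupling and in the handling of reactive oxygen species (ROS), and Slc23a2 was selected on its lower values in the mutant libraries. Each of the 10 symbols had a single entry. Because the difference between genotypes helped to choose the members, it is described for them below without a test.

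AMPK is a kinase that senses cellular energy, and γ2 is a regulatory subunit of it, encoded by Prkag2. The libraries came from wild-type mice (WT, n = 5) and from mice homozygous for R299Q γ2, a change that raises AMPK activity (Homo, n = 7), all C57BL/6 males aged 8 weeks and fed ad libitum. R299Q had been placed in exon 7 of the endogenous gene, so the ARC and every other tissue carried it from conception. The mutation changes 1 residue, and the level of Prkag2 was not used here to check the labels. The ARC was captured by laser from brain cryosections of 14 µm, RNA was amplified before sequencing with 1 library per mouse, and levels were deposited in FPKM, a count of sequenced fragments scaled to transcript length and to the size of the library. Each library pools the RNA of all captured cells, so fewer cells of a type and less RNA per cell cannot be told apart.

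FPKM summed to between 1.33e+07 and 2.12e+07 per library, and the 10 highest genes held 95.9% to 98.1% of each sum. The libraries fell into a set of 7 with fewer genes above 0 (WT 1, WT 2 and Homo 1 to 5, 15742 to 16467 genes) and a set of 5 with more (WT 3, WT 4, WT 5, Homo 6 and Homo 7, 18141 to 18635 genes). Judged by the smallest steps between low values, a single fragment per kb was worth 0.159 to 0.319 FPKM in the first set and 0.085 to 0.121 FPKM in the second, which was therefore the deeper. The labels name no such batch, though the titles of Homo 6 and Homo 7 are worded differently from those of Homo 1 to 5. The sets hold the genotypes in unequal numbers, so differences of the members are given over all 12 libraries and within each set. All 7 markers of arcuate neurons were above 0 in all 12 libraries, with a summed level of 1270 to 4479 FPKM in WT and 3359 to 5123 FPKM in Homo, and WT 3 was the lowest. Summed pituitary markers reached 114 FPKM in WT 3, 68.4 FPKM in WT 5 and 56.5 FPKM in Homo 7, against at most 9.37 FPKM in the other 9 libraries.

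Mitochondria that respire leak some electrons to oxygen and form superoxide. UCP2, a carrier of the inner mitochondrial membrane, is held to limit this leak in AGRP neurons of the ARC, which drive feeding and rely on fatty acid oxidation when ghrelin activates them. Superoxide that does form is turned into hydrogen peroxide by superoxide dismutases, and the peroxide is removed by catalase, glutathione peroxidases and peroxiredoxins, the last of which are recharged by thioredoxins. Vitamin C, which neurons hold at high concentration and take up through the transporter SVCT2, the product of Slc23a2, is a further scavenger of ROS.

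All 10 genes were among the more abundant of the ARC. Sod1, the cytosolic copper and zinc superoxide dismutase, was the most abundant of them, with a mean of 988 FPKM over the 12 libraries, and ranked 68 among the 14017 genes with a mean of at least 1 FPKM. It was followed by Gpx4, the glutathione peroxidase that acts on lipid hydroperoxides, at 342 FPKM (rank 212) and by Ucp2 at 246.5 FPKM (rank 284). Gpx1, the general glutathione peroxidase, Prdx5, a peroxiredoxin of mitochondria, peroxisomes and cytosol, and Txn2, the mitochondrial thioredoxin, lay close together at 137, 117 and 114 FPKM. The remaining members were lower, with Slc23a2 at 31.1 FPKM, the mitochondrial manganese superoxide dismutase gene Sod2 at 19.8 FPKM, the mitochondrial peroxiredoxin gene Prdx3 at 17.7 FPKM and Cat, which encodes the catalase of peroxisomes, at 17.3 FPKM (rank 3789).

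Neighbors in this order were compared within libraries, as differences of log2(FPKM + 1). For the 7 of 9 neighboring pairs without Slc23a2 the test draws on levels between genes. For the 2 pairs with it, whose Homo values helped to choose the gene, values are given without their p. The p of these 2 pairs did enter the adjustment over 9 pairs. The order came from the means of these same 12 libraries. The p-values measure the spread between mice and do not cover a bias of a gene shared by all libraries. Sod1 exceeded Gpx4 in 12 of 12 libraries, by 1.54 ± 0.27 on the log2 scale (mean ± SD, n = 12; exact two-sided sign-flip permutation test with Benjamini-Hochberg adjustment over 9 pairs, adjusted p = 0.0022), with 1.51 in WT and 1.56 in Homo. The smallest p that these 4096 sign flips can give is 0.000488 before adjustment, and Sod1 over Gpx4 was at it. Gpx4 was above Ucp2 in 9 of 12 libraries (0.49 ± 0.51, exact permutation test, adjusted p = 0.0176), by 0.19 ± 0.67 in WT and 0.70 ± 0.23 in Homo. Ucp2 was above Gpx1 in 11 of 12 libraries (0.85 ± 0.73, exact permutation test, adjusted p = 0.00879), by 1.32 ± 0.79 in WT and 0.51 ± 0.48 in Homo. With adjustment over the 7 pairs without Slc23a2, chosen after the data were seen, the exact permutation test gave adjusted p of 0.00342, 0.0194 and 0.0103 for these 3 pairs. Txn2 exceeded Slc23a2 in 12 of 12 libraries, by 1.12 ± 0.65 in WT and 2.43 ± 0.40 in Homo, and Slc23a2 was above Sod2 in 9 of 12, by 1.14 ± 0.31 in WT and 0.20 ± 0.45 in Homo. Other orders were not resolved by the spread, namely Gpx1 over Prdx5 (0.20 ± 0.53, exact permutation test, adjusted p = 0.378), Prdx5 over Txn2 (0.04 ± 0.52, exact permutation test, adjusted p = 0.79) and Sod2 over Prdx3 (0.11 ± 0.42, exact permutation test, adjusted p = 0.46). Prdx3 over Cat was likewise not resolved (0.18 ± 0.74, exact permutation test, adjusted p = 0.46).

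**Figure D1:**
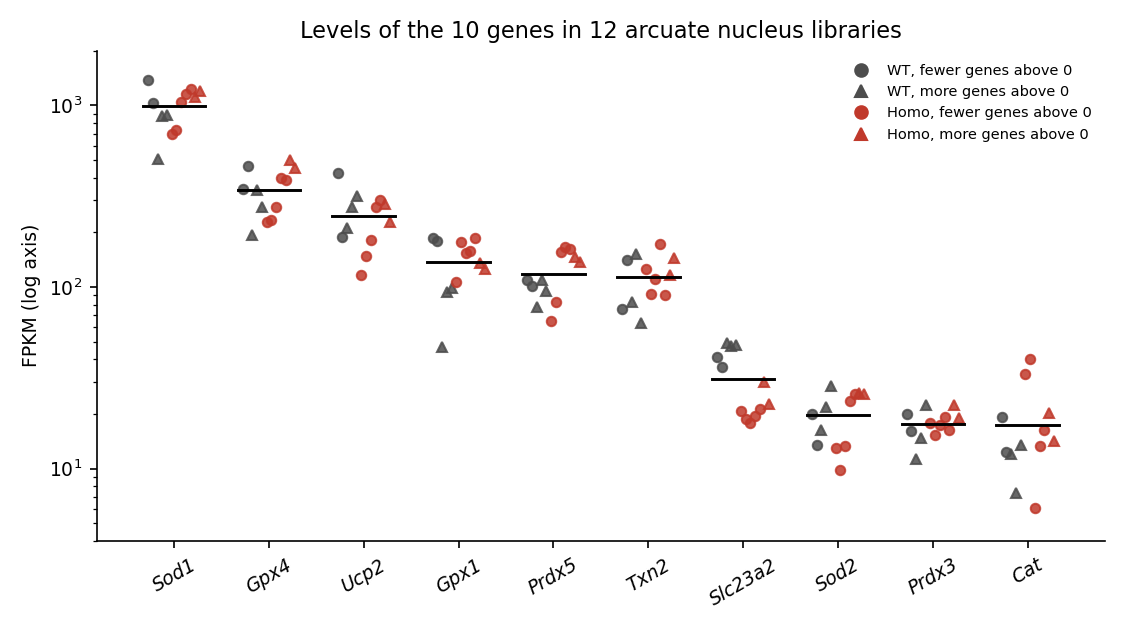
Level of each of the 10 genes in the 12 ARC libraries, in FPKM on a log axis. Points are single libraries, grey for WT and red for Homo, circles for the set with fewer genes above 0 and triangles for the set with more, and the black line is the mean of the 12. Sod1 stands highest at a mean of 988 FPKM, and Slc23a2 is the gene whose WT and Homo points are apart.

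The promoters of 3 members are shown because Slc23a2 carries the clearest separation of the genotypes, Ucp2 is the uncoupling gene that the study asked about, and Sod1 is the most abundant member. Sequences are RefSeq windows of GRCm38.p6, from 250 bases before to 50 bases after an annotated start, and all 10 members were matched, with 14 windows in all. Windows were searched on both strands for TGACNNNGC, the core of the antioxidant response element to which the redox-sensitive factor NRF2 binds, and the match is in capitals. Of 32851 mouse promoter windows, 12.4% hold it, and among the members 2 of 14 windows did, those of Ucp2 and Sod1. The Ucp2 window lies at chr7:100493108-100493407 on the plus strand, and its match, on the opposite strand, begins at base 185, 66 bases before the start. The Sod1 window lies at chr16:90220512-90220811 on the plus strand, with a match on the opposite strand at base 195, 56 bases before the start. Slc23a2 has 2 annotated starts, and the window printed, at chr2:132145059-132145358 on the minus strand, is that of the start which coincides with the outermost GENCODE start of the gene. It is 78.3% G and C, the highest share among the 14 windows, and holds no match. A match or its lack describes these letters in these windows and nothing about the factor.
Ucp2: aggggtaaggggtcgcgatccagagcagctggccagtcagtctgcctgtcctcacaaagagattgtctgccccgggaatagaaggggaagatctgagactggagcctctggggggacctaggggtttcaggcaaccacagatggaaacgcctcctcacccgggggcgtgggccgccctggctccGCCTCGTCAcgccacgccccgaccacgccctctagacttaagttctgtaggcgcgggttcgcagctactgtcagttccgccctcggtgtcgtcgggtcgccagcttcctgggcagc
Sod1: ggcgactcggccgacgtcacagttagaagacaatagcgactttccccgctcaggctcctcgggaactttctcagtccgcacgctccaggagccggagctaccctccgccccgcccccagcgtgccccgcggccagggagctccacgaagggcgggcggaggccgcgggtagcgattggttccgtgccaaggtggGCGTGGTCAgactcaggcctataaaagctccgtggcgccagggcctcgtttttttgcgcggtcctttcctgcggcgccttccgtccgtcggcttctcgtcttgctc
Slc23a2: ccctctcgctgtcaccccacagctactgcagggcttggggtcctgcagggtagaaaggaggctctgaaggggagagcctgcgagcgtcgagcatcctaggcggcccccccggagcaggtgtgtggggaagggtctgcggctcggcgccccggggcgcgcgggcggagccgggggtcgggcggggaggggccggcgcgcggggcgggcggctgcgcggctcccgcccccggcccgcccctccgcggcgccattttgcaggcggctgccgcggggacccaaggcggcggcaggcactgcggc

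Between genotypes, Slc23a2 was lower in every Homo library than in every WT library, and Ucp2 was lower on average with overlapping groups. Of the 10 members, 7 had a higher mean on the log2 scale in Homo and 3 a lower one (Ucp2, Slc23a2 and Sod2). The median of their differences was 0.15, beside -0.01 over all 14017 genes tested, of which 49.3% were higher in Homo. One member lay below WT in every Homo library, which 0.0927% of all genes did, and 0 lay above WT in every Homo library, which 0.128% of all genes did. These counts describe genes chosen with this contrast in view, and the signs of Sod1, Sod2, Gpx1, Gpx4 and Prdx3 turned between library sets.

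Ucp2 (ENSMUSG00000033685, chr7:100493337-100502020, plus strand, GRCm38) encodes the uncoupling protein that the study set against ROS in AGRP neurons. Its level in the 5 WT libraries was 425.5, 187.5, 213, 276 and 318.5 FPKM. In the 7 Homo libraries the lowest was 116, the median 228 and the highest 303 FPKM. Homo 1, Homo 2 and Homo 3 lay below every WT library, WT 1 and WT 5 lay above every Homo library, and the other 7 libraries overlapped. The means were 284 ± 94.5 FPKM among the 5 WT mice and 219.7 ± 73.0 FPKM among the 7 Homo mice (± SD), a Homo to WT ratio of 0.774. On the log2 scale the difference was -0.38 (SE 0.27), and it was -0.56 in the set with fewer genes above 0 and -0.05 in the set with more. The larger difference was thus that of the 7 shallower libraries, which also held both the lowest and the highest value of Ucp2. The paper reported no significant difference of baseline Ucp2 in the ARC, without showing the data, and no test was made here. Of the marker lists, the summed endothelial markers had the strongest relation to Ucp2 over the 12 libraries (r = -0.62), with 22.6 to 38.8 FPKM in WT and 25.2 to 50.02 FPKM in Homo, and microglial markers had an r of 0.196; the part of these cells was not tested. Ucp2 shares 305 exon bases with Dnajb13 on the opposite strand, a gene at a mean of 0.91 FPKM.

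Slc23a2 (ENSMUSG00000027340, chr2:132052496-132145108, minus strand) encodes the sodium-dependent transporter by which neurons take up ascorbate. WT libraries held 41.0, 36.3, 49.1, 47.6 and 48.0 FPKM. Homo libraries ranged from 17.8 over a median of 20.7 to 30.1 FPKM, the last in Homo 6. The genotypes did not overlap over all 12 libraries, and therefore not within either set, and the gap lay between Homo 6 and WT 2. Means were 44.4 ± 5.54 FPKM among the 5 WT mice and 21.6 ± 4.10 FPKM among the 7 Homo mice (± SD), a ratio of 0.486. The log2 difference was -1.02 (SE 0.17), with -0.94 in the set with fewer genes above 0 and -0.86 in the set with more. Variation within genotypes was low for this gene, and its residual SD on the log2 scale, 0.22, was at the 1.63 percentile of all genes tested. The gene was chosen on these same values, so this rank is a description only. No exon base of Slc23a2 is shared with another annotated gene.

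Some cell type markers also differed on average between genotypes. All 10 microglial markers averaged more in Homo than in WT, and the summed level was 93.3 to 161 FPKM in WT (median 131) and 130.5 to 239 FPKM in Homo (median 186). Of 6 markers of tanycytes and ependymal cells, 5 had a lower mean in Homo, with sums of 18.1 to 122 FPKM in WT (median 56.5) and 9.47 to 49.3 FPKM in Homo (median 21.5). Over the 12 libraries, the log2 level of Slc23a2 had a Pearson r of -0.596 with the microglial sum, -0.551 with the sum of the arcuate neuron markers, of which 7 of 7 averaged more in Homo, and 0.543 with the tanycyte and ependymal sum. No microglial marker was at 0 in any library, and 1 of the 6 tanycyte and ependymal markers was at 0 in some. General neuronal markers were alike in range, at 562 to 759 FPKM in WT and 535 to 863 FPKM in Homo, and had an r of 0.027 with Slc23a2. Blood markers, of which 0 of the 3 in the table averaged more in Homo, had an r of 0.513 with Slc23a2, and endothelial markers, of which 4 of 5 did, had an r of -0.474. All 6 oligodendrocyte markers averaged more in Homo, with an r of -0.0746 with Slc23a2. Their sums were 87.4 to 516 FPKM in WT (median 171) and 148 to 374 FPKM in Homo (median 262). The r was 0.338 for pituitary markers, of which 0 of 5 averaged more in Homo, and 0.196 for astrocyte markers, of which 4 of 6 did. All these r run over both genotypes and so include the difference of Slc23a2 between them, and r within genotypes was not computed. The part of these cell types in the level of Slc23a2 was not tested.

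**Figure D2:**
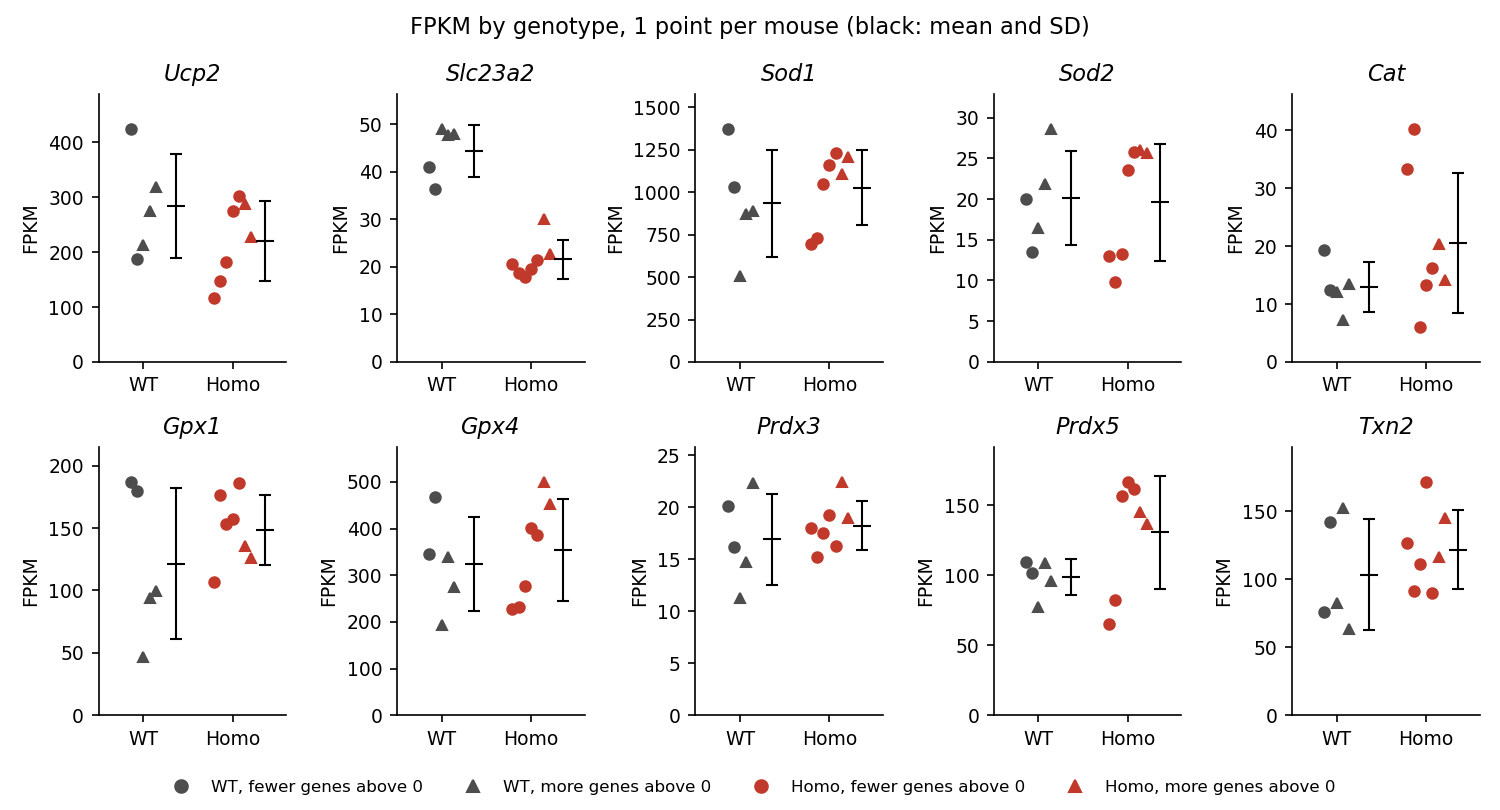
FPKM of each gene by genotype, with 1 point per mouse, grey for WT (n = 5) and red for Homo (n = 7), circles for the libraries with fewer genes above 0 and triangles for those with more; black marks are the mean and SD. All 7 Homo points of Slc23a2, at 17.8 to 30.1 FPKM, are below the 5 WT points, at 36.3 to 49.1 FPKM, whereas the points of the other 9 genes overlap.

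Sod1 (ENSMUSG00000022982, chr16:90220754-90226329, plus strand) and Sod2 (ENSMUSG00000006818, chr17:13006846-13040063, plus strand) supply the dismutases of the cytosol and of the mitochondrial matrix. Sod1 was at 1376, 1029, 505, 873 and 889 FPKM in WT and at 695 (lowest), 1109 (median) and 1233 FPKM (highest) in Homo. The Homo range lay inside the WT range, whose ends were WT 1 and WT 3. The means were 934 ± 314 FPKM among the 5 WT mice and 1027 ± 223 FPKM among the 7 Homo mice (± SD), with a log2 difference of 0.17 (SE 0.24). Its direction depended on the libraries, at -0.33 in the set with fewer genes above 0, 0.66 in the set with more and -0.03 without WT 3. Sod2 was at 20.01, 13.5, 16.4, 21.9 and 28.7 FPKM in WT and at 9.79 (lowest), 23.6 (median) and 26.1 FPKM (highest) in Homo. Homo 1, Homo 2 and Homo 3 were below every WT library and no Homo library was above WT 5. Means of Sod2 were 20.1 ± 5.78 FPKM among the 5 WT mice and 19.6 ± 7.20 FPKM among the 7 Homo mice (± SD), and the log2 difference was -0.08 (SE 0.28). Its direction was no firmer than that of Sod1, at -0.04 in the set with fewer genes above 0, 0.24 in the set with more, 0.09 with the set as a covariate, 0.05 without WT 5 and 0.06 without Homo 2.

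Cat (ENSMUSG00000027187, chr2:103453849-103485160, minus strand), the gene of the enzyme that splits hydrogen peroxide in peroxisomes, varied most among the members, with an SD of 58.1% of its mean over 12 libraries. WT libraries held 19.3, 12.3, 12.01, 7.30 and 13.5 FPKM, and Homo libraries ran from 6.03 over a median of 16.3 to 40.3 FPKM. Homo 1, Homo 2 and Homo 6 were above every WT library and Homo 3 was below every one. Cat averaged 12.9 ± 4.30 FPKM among the 5 WT mice and 20.5 ± 12.1 FPKM among the 7 Homo mice (± SD), a log2 difference of 0.49 (SE 0.38), with 0.21 and 0.63 in the sets with fewer and more genes above 0.

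Gpx1 (ENSMUSG00000063856, chr9:108338903-108340343, plus strand) and Gpx4 (ENSMUSG00000075706, chr10:80047166-80056439, plus strand) are the main glutathione peroxidases of the cell interior. Gpx1 was at 187, 180, 46.5, 93.8 and 99.3 FPKM in WT and at 107 (lowest), 153 (median) and 186 FPKM (highest) in Homo. WT itself was split, with WT 1 just above every Homo library, WT 2 near the top of the Homo range and the other 3 WT libraries below every Homo library. The means were 121 ± 60.4 FPKM among the 5 WT mice and 148.7 ± 27.9 FPKM among the 7 Homo mice (± SD), and the log2 difference was 0.44 (SE 0.29). Gpx4 was at 346, 467, 193, 340 and 276 FPKM in WT and at 227.5 (lowest), 387 (median) and 500.2 FPKM (highest) in Homo. Only WT 3 fell below the Homo range and only Homo 6 was above the WT range. Gpx4 averaged 324 ± 101 FPKM among the 5 WT mice and 354 ± 109 FPKM among the 7 Homo mice (± SD), a log2 difference of 0.12 (SE 0.25). Both genes had opposite signs in the library sets, Gpx1 with -0.26 in the set with fewer genes above 0 and 0.78 in the set with more, and Gpx4 with -0.44 and 0.86. Without WT 3 the difference was 0.14 for Gpx1 and -0.05 for Gpx4. The median over all genes tested was -0.10 in the first set and 0.14 in the second.

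Prdx3 (ENSMUSG00000024997, chr19:60864051-60874556, minus strand), Prdx5 (ENSMUSG00000024953, chr19:6906697-6910106, minus strand) and Txn2 (ENSMUSG00000005354, chr15:77915047-77929006, minus strand) belong to the thiol pathway by which mitochondria reduce peroxide. Prdx3 was at 20.1, 16.1, 11.3, 14.7 and 22.3 FPKM in WT and at 15.2 (lowest), 17.9 (median) and 22.4 FPKM (highest) in Homo. WT 3 and WT 4 were below every Homo library, and Homo 6 was just above WT 5. Prdx3 varied least among the members, with an SD of 18.2% of the mean over 12 libraries. Its means were 16.9 ± 4.37 FPKM among the 5 WT mice and 18.2 ± 2.33 FPKM among the 7 Homo mice (± SD), and the log2 difference was 0.13 (SE 0.19), at -0.06 and 0.39 in the sets with fewer and more genes above 0 and 0.0032 without WT 3. Prdx5 was at 109.5, 101, 77.6, 109 and 95.5 FPKM in WT and at 65.2 (lowest), 145 (median) and 167 FPKM (highest) in Homo. Homo 3 to Homo 7 were above every WT library, Homo 1 was below every one and Homo 2 lay within the WT range. Prdx5 averaged 98.6 ± 13.0 FPKM among the 5 WT mice and 131 ± 40.4 FPKM among the 7 Homo mice (± SD), a log2 difference of 0.34 (SE 0.24) with 0.16 and 0.59 in the sets with fewer and more genes above 0. Prdx5 shares 409 exon bases with Trmt112 on the opposite strand, a gene at a mean of 44.1 FPKM, and the sources used here do not say whether strand was counted. Txn2 was at 76.1, 142, 82.4, 152.5 and 63.5 FPKM in WT and at 89.8 (lowest), 116.5 (median) and 171.5 FPKM (highest) in Homo. Each of the 7 Homo libraries was above the WT median, with WT 2 and WT 4 inside the Homo range. Txn2 averaged 103 ± 40.8 FPKM among the 5 WT mice and 122 ± 29.2 FPKM among the 7 Homo mice (± SD), a log2 difference of 0.29 (SE 0.24) with 0.14 and 0.48 in the sets with fewer and more genes above 0.

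**Figure D3:**
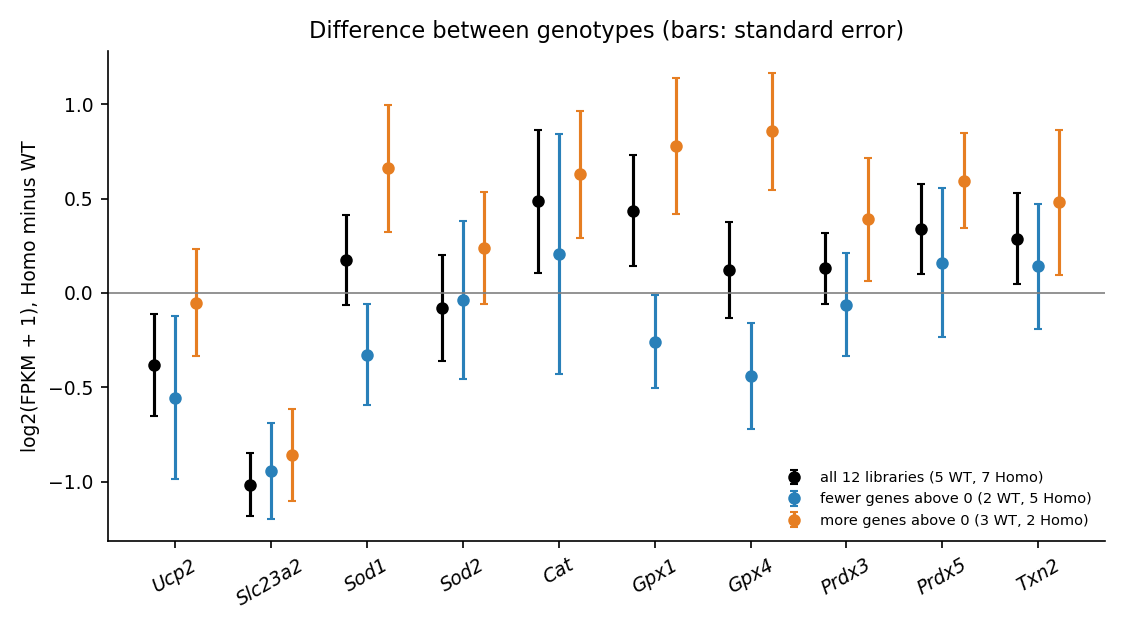
Difference between genotypes in log2(FPKM + 1), Homo minus WT, for each gene, over all 12 libraries (black), in the set with fewer genes above 0 (blue, 2 WT and 5 Homo) and in the set with more (orange, 3 WT and 2 Homo); bars are standard errors. Slc23a2 is at -1.02, -0.94 and -0.86, whereas Sod1, Sod2, Gpx1, Gpx4 and Prdx3 are below 0 in the first set and above 0 in the second.

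Depth and single libraries stood beside several of these differences. WT 3, the library with the highest FPKM sum and the lowest sum of arcuate neuron markers, was the lowest of all 12 for 4 of 10 members, Sod1, Gpx1, Gpx4 and Prdx3. In the set with more genes above 0, which holds 3 WT and 2 Homo libraries, Sod1, Cat, Gpx1, Gpx4 and Prdx5 were higher in Homo without overlap, as were 16.3% of all genes, and Slc23a2 was lower without overlap, as were 4.74%. In the set with fewer genes above 0, with 2 WT and 5 Homo libraries, only Slc23a2 was lower without overlap, as were 6.56% of all genes, and 0 members were higher without overlap, beside 2.78%. For Slc23a2, chosen on its lower Homo values, the lack of overlap within each set follows from that over all 12 libraries. The part of depth and of dissection in these values was not tested.

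Levels of several members varied together from mouse to mouse. As a description over 12 libraries, Pearson's r of log2(FPKM + 1) was above 0 for 28 of the 45 pairs of members, and for 32 pairs once each genotype was set to its own mean. The highest r within genotypes joined Ucp2 with Sod2 (0.816; over all libraries r was 0.784 and Spearman's rho 0.811). Sod1, Gpx4 and Prdx5 formed a group of abundant genes with r within genotypes of 0.807 (Sod1 with Gpx4), 0.774 (Sod1 with Prdx5) and 0.703 (Gpx4 with Prdx5). Ucp2 also followed Sod1 (0.736) and Prdx5 (0.773) within genotypes. With the library set also set to its mean, r was 0.864 for Ucp2 with Sod2, 0.837 for Ucp2 with Sod1, 0.747 for Sod1 with Gpx4 and 0.844 for Sod1 with Prdx5. Other relations rested on WT 3, without which r fell from 0.77 to 0.49 for Sod1 with Gpx1 and from 0.48 to -0.172 for Gpx1 with Prdx3. Cat ran against Prdx5, with r of -0.691 within genotypes and a rho of -0.217 over all libraries. Slc23a2 had its highest r within genotypes with Sod2 (0.62, or 0.349 within genotypes and library sets) and reached 0.377 with Ucp2. All these values share the libraries, their depth and their cell composition.

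**Figure D4:**
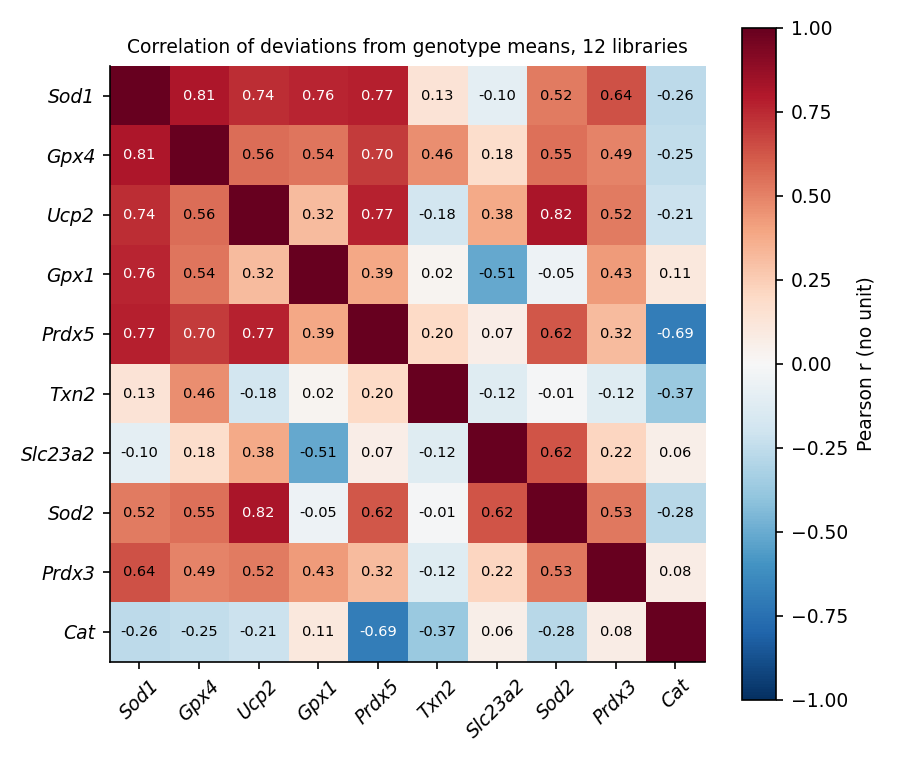
Pearson's r between the 10 genes over 12 libraries, after the mean of each genotype was taken from log2(FPKM + 1); color runs from -1 (blue) to 1 (red) and genes are in order of level. Ucp2 with Sod2, at 0.82, and Sod1 with Gpx4, at 0.81, are the highest, and Prdx5 with Cat, at -0.69, is the lowest.

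Among all 14017 genes tested, the 5 whose log2 level was most like that of Ucp2 over the 12 libraries were Adarb1 (r = 0.936), which encodes an RNA-editing enzyme, Trmt61a (r = 0.931), a tRNA methyltransferase gene, Cct2 (r = 0.919), a chaperonin subunit gene, Spata2l (r = 0.917) and 1190005F20Rik (r = 0.913). Their r within genotypes was 0.898 to 0.932, and all of these had means in the same order as Ucp2, higher in WT. Choosing the highest of 14017 values of r from 12 libraries favors large r and the same order of genotypes. For Slc23a2 the closest was Jarid2 (r = 0.93), a gene of the Polycomb machinery with a mean of 18.0 FPKM in WT that is listed at 0 in all 7 Homo libraries. Its r within genotypes was 0.182, so its likeness lay in the genotype step. The next were Blcap (r = 0.891), Homer1 (r = 0.877), which encodes a scaffold protein of excitatory synapses, Nrsn1 (r = 0.873) and Hnrnpk (r = 0.871), an RNA-binding protein gene, whose r within genotypes was 0.73 to 0.809. A value of exactly 0 in FPKM can be a failed estimate, and no cause of the zeros of Jarid2 was tested.

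Genes of the same pathways other than the members were tested between genotypes with limma across all 14017 genes. Of 86 such genes, 71 reached a mean of 1 FPKM, and 0 of the 71 had an adjusted p under 0.05, beside 0.00713% of all genes, which is Jarid2 alone. At an unadjusted p under 0.05, 2 of 71 were higher in Homo (2.82%) and 0 were lower, against 3.05% and 2.5% of all genes. The lists were divided in direction, with 38 genes higher and 33 lower in Homo and a median difference of 0.03.

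Among the carriers related to Ucp2, Ucp1, the uncoupling protein of brown fat, was listed at 0 in 11 of 12 libraries, and Ucp3, that of muscle, averaged 0.767 FPKM, so that Ucp2 was the only classical uncoupling protein gene above 1 FPKM. The brain carriers Slc25a14 (33.2 FPKM) and Slc25a27 (4.56 FPKM) had log2 differences of -0.04 and -0.06. The adenine nucleotide carrier gene Slc25a4, the most abundant of this list, averaged 147 FPKM in WT and 159 FPKM in Homo (limma adjusted p = 0.967). None of the 5 tested carriers passed at an unadjusted p under 0.05. Their log2 differences lay between -0.06 and 0.12, and that of Slc25a4 was -0.32 in the set with fewer genes above 0 and 0.63 in the set with more.

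In vitamin C handling, Slc23a2 was the only gene of its family listed, Slc23a1 to Slc23a3, with a mean above 1 FPKM. Slc23a1, which serves absorption in gut and kidney, averaged 0.204 FPKM, Slc23a3 was listed at 0 in 11 libraries, and Gulo, whose product makes vitamin C in the liver, was listed at 0 in all 12. Slc2a1, the glucose transporter that also takes up oxidized vitamin C, averaged 25.4 ± 5.88 FPKM among the 5 WT mice and 25.4 ± 4.25 FPKM among the 7 Homo mice (± SD), with a log2 difference of 0.02 (SE 0.19, limma adjusted p = 0.995). The neuronal glucose transporter gene Slc2a3 and the enzymes Gsto1 and Glrx, which can recycle oxidized vitamin C, had log2 differences of -0.05, 0.17 and -0.06, and 0 of these 4 genes passed. Slc2a1 was at -0.24 in the set with fewer genes above 0 and at 0.30 in the set with more.

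Among the partners of the peroxide-removing members, the thioredoxin list leaned to higher values, with 7 of 8 genes higher in Homo and a median of 0.22, but 0 passed at an unadjusted p under 0.05. Txn1, the cytosolic counterpart of Txn2, averaged 66.6 ± 21.3 FPKM among the 5 WT mice and 80.1 ± 17.8 FPKM among the 7 Homo mice (± SD; limma adjusted p = 0.915). In the peroxiredoxin list, 2 of 5 genes were higher in Homo and 3 lower, with a median of -0.09, and 0 passed. The lower genes were Prdx4 (log2 difference -0.17), Prdx6 (-0.17) and Srxn1 (-0.09). Prdx2, the most abundant of this list, averaged 145 FPKM in WT and 184 FPKM in Homo (log2 difference 0.37, SE 0.18, limma adjusted p = 0.899). In the glutathione list, 10 of 16 genes were higher and 0 passed, and Gpx3, the secreted glutathione peroxidase and the most abundant of them, averaged 325 FPKM in WT and 343 FPKM in Homo (limma adjusted p = 0.968). Ccs, the chaperone that loads copper on SOD1, averaged 9.10 and 7.62 FPKM (limma adjusted p = 0.97). Of 7 genes that supply NADPH to these systems 3 were higher, with Idh1 the most abundant at 19.6 and 24.3 FPKM (limma adjusted p = 0.915). Between the sets with fewer and more genes above 0, log2 differences turned from -0.05 to 0.60 for Txn1, from -0.30 to 0.40 for Gpx3 and from -0.83 to 0.20 for Ccs, and did not turn for Prdx2 (0.09 and 0.53) or Idh1 (0.23 and 0.13). In the thioredoxin list the sign also turned for Txnrd1 (0.21 and -0.0038), Txnrd2 (-0.47 and 1.39) and Txnip (0.78 and -0.01). It did not turn for Txnrd3, Txnl1, Msra or Msrb2.

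The list of NRF2 and its targets held both genes with an unadjusted p under 0.05. Mt1, which encodes a metallothionein that binds zinc and scavenges radicals, was at 249.7, 193, 111, 203 and 217 FPKM in WT and at 238 (lowest), 315 (median) and 548.5 FPKM (highest) in Homo. Only WT 1 reached into the Homo range. The means were 195 ± 51.5 FPKM among the 5 WT mice and 347 ± 108 FPKM among the 7 Homo mice (± SD). The log2 difference was 0.83 (SE 0.24), with an unadjusted limma p of 0.0033 and an adjusted p of 0.707, and it was 0.67 and 0.81 in the sets with fewer and more genes above 0 and 0.64 without WT 3. Fth1, the heavy chain of the iron store ferritin, averaged 722 ± 141 FPKM among the 5 WT mice and 937 ± 165 FPKM among the 7 Homo mice (± SD), and 7 of 7 Homo libraries were above the WT median. Its log2 difference was 0.38 (SE 0.17), with an unadjusted limma p of 0.042 and an adjusted p of 0.899, and it was 0.26 and 0.68 in the sets with fewer and more genes above 0. The list as a whole did not lean to one side, with 6 of 13 genes higher in Homo and a median of -0.06, and the classical targets Nqo1 and Hmox1 had log2 differences of -0.44 and -0.06. Ucp2 and Sod1, the members whose windows hold the NRF2 core letters, had differences of -0.38 and 0.17.

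For the sources of ROS, 3 of 7 tested genes were higher in Homo and 0 passed, and Romo1, which encodes a mitochondrial membrane protein linked to superoxide formation, was the most abundant at 475.5 and 602 FPKM (log2 difference 0.43, limma adjusted p = 0.903). The difference of Romo1 was -0.12 in the set with fewer genes above 0 and 0.72 in the set with more. Of 5 regulators of antioxidant genes, 3 were higher and 0 passed. Ppargc1a, the coactivator of mitochondrial biogenesis, averaged 19.8 ± 15.4 FPKM among the 5 WT mice and 13.5 ± 5.32 FPKM among the 7 Homo mice (± SD; limma adjusted p = 0.923), with WT 1 alone at 47.1 FPKM. Sirt3, the deacetylase that activates SOD2, had a log2 difference of -0.50 (SE 0.26, limma adjusted p = 0.903). In the sets with fewer and more genes above 0, the differences were -0.84 and 0.14 for Ppargc1a and -0.94 and 0.01 for Sirt3.

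**Figure D5:**
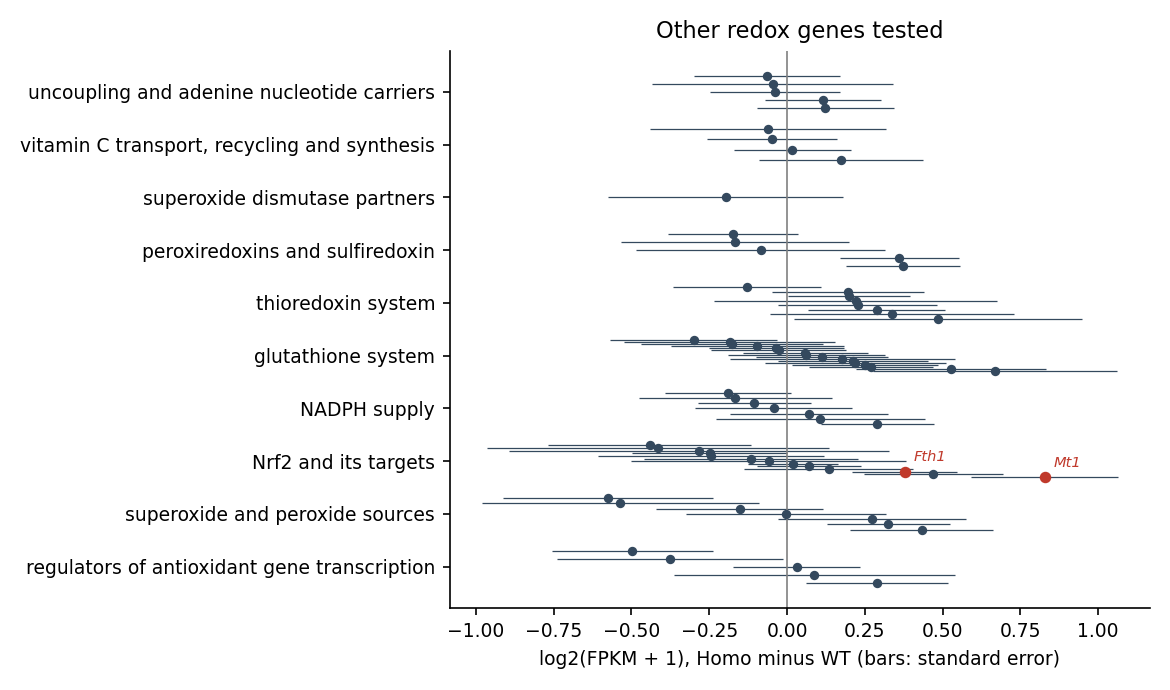
Difference between genotypes in log2(FPKM + 1), Homo minus WT, for the 71 tested genes of 10 redox lists that are not among the 10 members; points are genes and bars are standard errors. Red points are Mt1 at 0.83 and Fth1 at 0.38, the only genes with an unadjusted p under 0.05, and in most lists the points lie on both sides of 0.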

How the data were processed

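Total RNA from laser-captured ARC was amplified with the NuGEN RNAseq system, broken to 200 bp and sequenced on an Illumina HiSeq instrument, 1 library per mouse, so p-values measure the spread between mice. The authors deposited 1 table of FPKM values on GRCm38; their processing notes name TopHat2 2.0.8 and Cufflinks 2.2.1, and strand handling and further settings are not given in the sources used here. The 12 columns were matched to samples by genotype and number, with 0 columns left over. Values were taken as log2(FPKM + 1), and 14017 genes with a mean of at least 1 FPKM were fitted with limma 3.58.1 in R 4.3.3 (eBayes with robust variances and a trend, no term but genotype, Benjamini-Hochberg adjustment). A fold on this scale understates changes of low genes. Read counts, and so depth, were not analysed here; the step between low values gave relative depth, which was uncertain in Homo 2 and Homo 3.

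The members and the gene lists were chosen with earlier results of these data known. Named genes were the 10 members, listed genes with an unadjusted p under 0.05, the most abundant gene of each list, and the 5 genes with the highest Pearson r to Ucp2 and to Slc23a2. Further listed genes were picked with their values in view. Gene positions follow GENCODE M21, which holds 97.5% of the tested identifiers, and promoters are from RefSeq. The scripts were tested on simulated data. Alternatives covered the pseudocount, filters, quantile and upper-quartile scaling, the library set as a covariate and as a split, Homo 1 to 5 alone, a replicate block and each library left out. Plots were drawn with matplotlib 3.10.9.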

Additional observations from a re-analysis of the deposited data

Results flagged for a closer look

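Dixon's test was applied within each genotype to the 10 members and 11 further named redox genes, 42 groups in all, and 2 had a sample far from the rest by the 95% limit for their size; chance alone gives about 1 in 20. Among the Homo libraries, Slc23a2 stood at 30.09 FPKM in Homo 6, against 22.71 FPKM in the next library, with a gap of 0.602 of the range. Homo 6 was still below all 5 WT libraries. Among the WT libraries, Ppargc1a stood at 47.06 FPKM in WT 1, against 14.54 FPKM in the next, with a gap of 0.868 of the range. WT 1 was also the highest library for Ucp2, Sod1 and Gpx1.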

How the results depend on the processing

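Over 22 alternatives, Slc23a2 lay between -1.13 (replicate block) and -0.86 (set with more genes above 0). All its Homo values were below all its WT values, so leaving out or splitting libraries could not turn its direction. Ucp2 lay between -0.56 and -0.05, being -0.52 to -0.22 as each library was left out. Of 220 alternative values for the members, 215 moved by less than the SD between replicates and 13 changed sign. The 5 that moved further were Sod1 at -0.33 and Gpx1 at -0.26 and Gpx4 at -0.44 in the set with fewer genes above 0, and Sod1 at 0.66 and Gpx4 at 0.86 in the set with more. That SD is of single libraries, a wide limit for a difference of means, so the 215 do not show stability. The filters on low values could not move a member's difference, and the replicate block gave the same differences as Homo 1 to 5 only. Genes with an adjusted p under 0.05, 1 over all libraries, numbered 5 in the set with fewer genes above 0, 18 in the set with more, 4 with Homo 1 to 5 only, and 1 to 3 as each library was left out (3 without WT 2). Replicate numbers did not pair the mice (r of deviations -0.054 to 0.029 for the same number), and a replicate block gave 2 such genes. Among the listed redox genes 0 were called in any of the 22 alternatives. Those with an unadjusted p under 0.05, 2 over all libraries, numbered 5 with upper-quartile scaling, 4 in the set with more genes above 0, 1 with Homo 1 to 5 only and 1 to 4 as each library was left out, with 4 without WT 1 or WT 5 and 1 without WT 3, Homo 5, Homo 6 or Homo 7. In the order of levels, 96 of the 105 alternative values that could be tested in the 7 pairs without Slc23a2 were unchanged in direction and call. In the 7 libraries with fewer genes above 0, Sod1 over Gpx4 (1.64), Gpx4 over Ucp2 (0.59) and Ucp2 over Gpx1 (0.41) no longer passed the exact permutation test, and Sod2 over Prdx3 turned to -0.10; fewer libraries entered these tests. Txn2 over Slc23a2 was 2.18 and Slc23a2 over Sod2 0.54 in the same 7. In the 7 Homo libraries, Ucp2 over Gpx1 (0.51) did not pass, and Slc23a2 over Sod2 was 0.20. Prdx5 over Txn2 lay between -0.032 and 0.131 as each library was left out. With 5 libraries the smallest p is 0.0625, so no test was made in WT alone or in the set with more genes above 0, where Gpx1 over Prdx5 turned to -0.22 and the other 17 of 18 values kept their direction. Without read counts, low values such as those of Ucp1 cannot be given an interval.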

Other observations

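Further redox genes beside those described above had the following values. Mt2, the metallothionein gene that neighbors Mt1, averaged 151 ± 47.1 FPKM over 5 WT and 206 ± 45.3 FPKM over 7 Homo libraries (± SD), and its log2 difference of 0.47 (SE 0.22) had a limma adjusted p of 0.899. Mt3, the metallothionein gene known for its expression in brain, had the opposite sign, with WT at 15.2 FPKM and Homo at 10.2 FPKM (log2 difference -0.41, SE 0.55, limma adjusted p = 0.94). Prdx1, a cytosolic peroxiredoxin gene, averaged 61.9 FPKM in WT and 79.6 FPKM in Homo (limma adjusted p = 0.903), and Glrx2, the mitochondrial glutaredoxin gene, 23.6 and 32.5 FPKM (limma adjusted p = 0.915).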
